A study of Mus musculus with 6 samples.

Results

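The genes described here encode channel subunits that set the membrane potential and the calcium entry of the β cell. They are the KATP channel subunits Abcc8 and Kcnj11, the calcium channel pore subunits Cacna1a, Cacna1c and Cacna1d, and the calcium channel β subunits Cacnb2 and Cacnb3. They were chosen by name and make up 7 of the 41710 genes in the files of 6 libraries. None of the 7 is itself a delayed rectifier, so those potassium channels are given further down as a separate list.

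In a resting β cell, KATP channels are open and hold the membrane potential low. Metabolism of glucose raises ATP, which closes them, and the membrane depolarises and opens voltage-gated calcium channels. Calcium entry triggers the release of insulin granules, and delayed rectifier potassium channels then repolarise the membrane. A KATP channel of the β cell is built from the pore subunit Kir6.2, encoded by Kcnj11, and the regulatory sulfonylurea receptor SUR1, encoded by Abcc8. Calcium channels are built around a pore-forming α1 subunit, and their β subunits help to bring it to the membrane and tune its gating.

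RNA came from pancreatic islets of 3 WT and 3 Trpm7R/R mice, the latter homozygous for a point mutation that inactivates the kinase of TRPM7 in every tissue. TRPM7 joins an ion channel and a kinase in 1 protein. Both genotypes were littermates on a C57BL/6 background, and all received a high-fat diet (HFD) with 45% of calories from fat from 8 weeks of age for 16 weeks. Each mouse gave 1 library, with replicate numbers 1, 2 and 3 in WT and 4, 6 and 8 in Trpm7R/R, and there was no group on a control diet. Because whole islets were lysed after culture, fewer cells of a type and less RNA per cell cannot be told apart.

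The libraries held between 17213285 and 20307909 mapped reads, as implied by the deposited RPKM values, but only 1312128 to 2135466 exon reads. Introns held 75.7% to 84.2% of the reads in genes. Reads across exon-exon junctions of autosomal protein-coding genes, predicted genes left out, numbered 16187 to 34386 in WT and 5664 to 9719 in Trpm7R/R, without overlap. The labelled tissue showed its markers, since Ins2 had 11717 to 35327 exon reads in WT and 3648 to 9630 in Trpm7R/R. Intron reads on the Y chromosome, per base and relative to autosomes, stood at 0.582 to 0.666 in WT and 0.476 in Trpm7R/R replicate 4, but at 0.0645 and 0.0447 in Trpm7R/R replicates 6 and 8. The labels do not give the sex of the mice, and 2 of the 3 Trpm7R/R libraries thus differ from all WT libraries in more than the named genotype.

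All 7 channel genes were read at low levels. Per length of exon, in RPKM (exon reads per kilobase of exon and 1000000 mapped reads), the order of the means over 6 libraries was Cacnb2 at 0.208 ± 0.0419 (SD, n = 6), Cacna1d at 0.149 ± 0.0418 (SD, n = 6), Abcc8 at 0.121 ± 0.0642 (SD, n = 6) and Cacna1c at 0.103 ± 0.0284 (SD, n = 6). Cacna1a followed at 0.0975 ± 0.0378 (SD, n = 6), Kcnj11 at 0.0468 ± 0.0198 (SD, n = 6) and Cacnb3 at 0.0410 ± 0.0252 (SD, n = 6). Of the neighbours in this order, only Cacnb2 and Cacna1d, and Cacna1a and Kcnj11, were farther apart than the SD of either. Kcnj11 and Cacnb3, the shortest of the 7 genes, had between 1 and 6 exon reads in every library. Such levels were common in these libraries. Among protein-coding autosomal genes, Cacnb2 was at percentile 66.4 of mean RPKM, Cacna1d at 52.9, Abcc8 at 44.4 and Cacna1c at 38.0. Cacna1a was at percentile 35.75, Kcnj11 at 14.59 and Cacnb3 at 12.35. As a reference, 1487 olfactory and vomeronasal receptor genes were taken as genes that islets should lack. Their median exon density was 1.01 to 1.88 times the median intron density of the library. The means of the 7 genes on this scale ran from 0.168 for Cacnb3 to 0.861 for Cacnb2. The order above thus ranks read density, and not spliced mRNA.

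**Figure D1:**
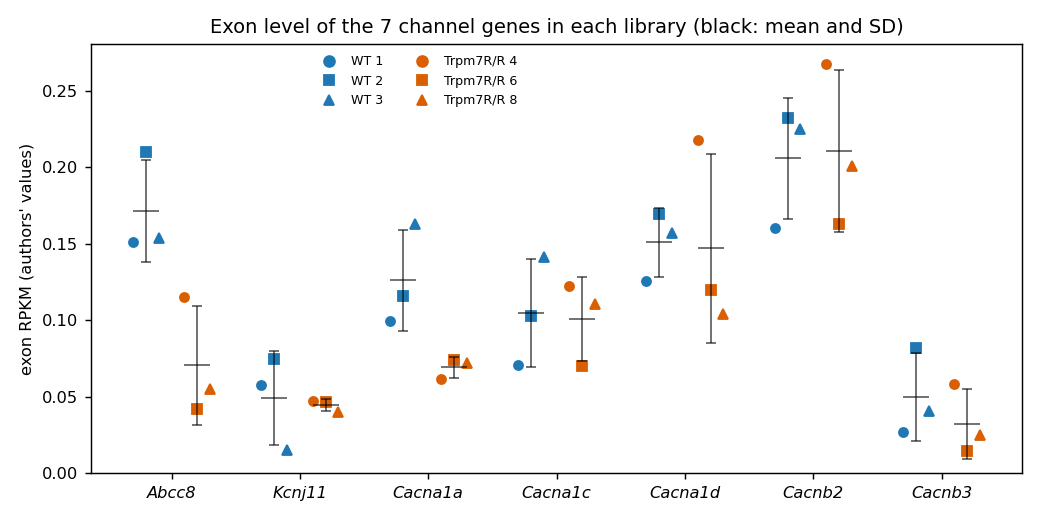
Exon level of each channel gene in RPKM, as the authors calculated it (vertical axis, linear), by gene. Each point is 1 library, WT in blue and Trpm7R/R in orange, and black marks give the mean and SD of 3 libraries. No level exceeds 0.268, and WT and Trpm7R/R points are separate for Abcc8 and Cacna1a only.

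Exon levels this low have to be read against the reads that fall in introns. For each gene and library, the density of exon reads per kilobase was divided by the density of intron reads in the gene's own introns, with an exact 95% interval that covers counting error only. Spliced mRNA raises this ratio, while unspliced RNA or DNA gives a value near 1. Over 9432 protein-coding autosomal genes with enough reads, the median ratio over all libraries was 0.928 (interquartile range 0.612 to 1.52), and 348 genes reached 5 or more. No channel gene stood above its introns in all 3 libraries of either genotype (0 of 7 in WT and 0 of 7 in Trpm7R/R), and none exceeded its introns beyond counting error in any library. With uniquely mapped reads alone, Abcc8 did so in WT replicate 1 (1.78, 95% CI 1.08 to 2.80) and no other gene or library did. Cacna1c, Cacna1d and Cacnb2 lay below their introns in all 6 libraries.

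**Figure D2:**
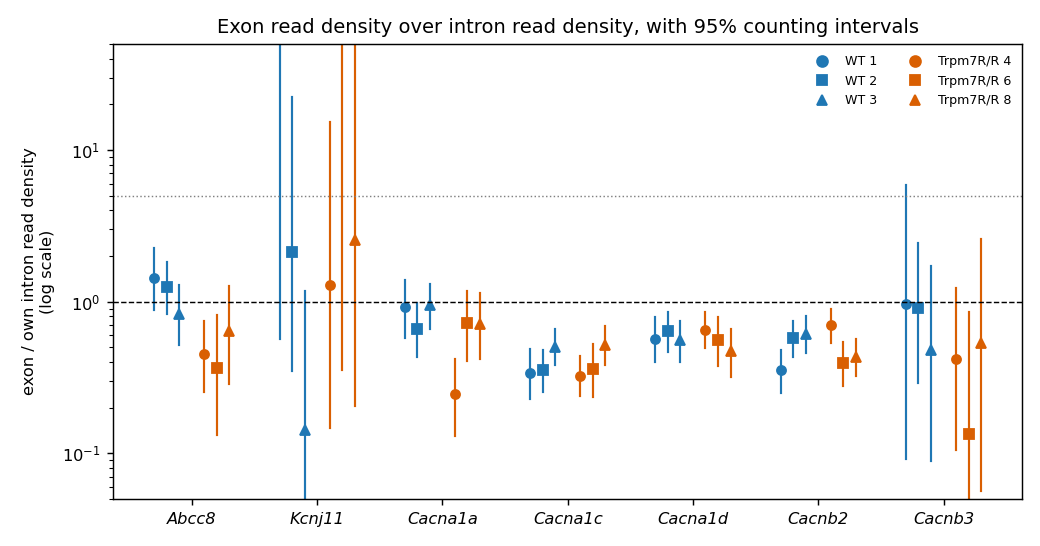
Ratio of exon to own intron read density (vertical axis, log scale) for each gene and library. Points are the ratio, bars its 95% counting interval, the dashed line marks equal density and the dotted line a ratio of 5. Kcnj11 bars without a point had no intron read, and bars that reach the frame continue beyond it. The points of Cacna1c, Cacna1d and Cacnb2 all lie below 1, and those of Abcc8 are higher in each WT library than in each Trpm7R/R library.

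Of the KATP channel genes, Abcc8 on chromosome 7 is the 1 gene of the 7 whose values differed most between the genotypes. It had 23, 31 and 23 exon reads in WT replicates 1, 2 and 3, and 16, 6 and 9 in Trpm7R/R replicates 4, 6 and 8. Every Trpm7R/R library was below every WT library. At its own intron density, 16.0, 24.7 and 27.6 exon reads would have been counted in WT, and 35.4, 16.4 and 14.04 in Trpm7R/R. The corresponding ratios were 1.44 (95% CI 0.883 to 2.26), 1.25 (0.831 to 1.84) and 0.833 (0.518 to 1.28) in WT. In Trpm7R/R they were 0.452 (0.255 to 0.746), 0.365 (0.132 to 0.815) and 0.641 (0.286 to 1.26). Exon reads of Abcc8 were thus at the density of its introns in WT, and below it beyond counting error in 2 of 3 Trpm7R/R libraries. Intron reads of Abcc8 did not follow the genotype, with 133, 206 and 230 in WT and 295, 137 and 117 in Trpm7R/R.

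The edgeR fit on exon reads gave Abcc8 a log2 fold change of -1.27 (SE 0.43, 95% CI -2.20 to -0.33), from 25.2 ± 3.85 (SD, n = 3) normalised reads in WT to 10.3 ± 4.73 (SD, n = 3) in Trpm7R/R. The unadjusted p of this edgeR quasi-likelihood fit was 0.0112 and the p adjusted over all 11674 genes 0.422, so Abcc8 was not called. Abcc8 passed the filter on low counts through its 3 WT libraries and Trpm7R/R replicate 4, so its presence among the genes tested is not independent of its higher WT values. On intron reads the log2 fold change was -0.08 (SE 0.36), with an edgeR adjusted p of 1.00. The exon difference depended on scaling. When libraries were scaled by ribosomal protein genes it was 0.08, and when scaled by genes well above their introns 0.55. These scalings moved the median of all genes to 1.34 and 1.82. The latter scaling rests on the summed reads of 72 genes, among them Ins1, Ins2, Gcg, Ppy and Pyy, which were lower in Trpm7R/R. With a term for the libraries almost without Y-linked reads, the log2 fold change of Abcc8 was -0.68 (unadjusted edgeR p 0.208).

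Reads across exon-exon junctions were counted apart from reads in introns, and spliced RNA can give rise to them. Abcc8 had 5, 7 and 4 such reads in WT and 0, 0 and 0 in Trpm7R/R. Against a floor of 3 reads over the 3 Trpm7R/R libraries, this is 5.30-fold higher in WT per mapped read. That value carries no interval for the 16 WT reads and no spread between mice, so it is not a lower bound. With predicted genes left out, the Trpm7R/R libraries also held fewer junction reads in all, 23694 against 79487 in WT. Per such read the value was 1.59-fold, or 1.90-fold without Ins1 and Ins2. At the WT share, 4.77 junction reads of Abcc8 would have been counted over the 3 Trpm7R/R libraries. Predicted genes alone held 298614 of 378101 junction reads in WT and 306986 of 330680 in Trpm7R/R. Whether these reads come from spliced RNA was not tested. With these in the total, a denominator chosen after the data were seen, the value was 4.66-fold and 13.99 reads would have been counted. The size of the difference relative to other junction reads thus depends on this choice and on 16 reads of Abcc8.

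The tested markers of all 4 endocrine cell types had lower values in Trpm7R/R libraries, as Abcc8 did. All 8 of 8 β cell markers had a negative log2 fold change, beside 49.3% of all genes tested. At an unadjusted p under 0.05, 6 of 8 were lower, beside 4.57% of all genes, with a median of -1.80, and 0 were called, beside 0.0257%. Their summed exon reads per 1000000 mapped reads ranged from 910.3 to 2317 in WT and from 285.7 to 654.6 in Trpm7R/R, without overlap, and no marker was at 0 in either group. The 2 of 5 alpha cell markers tested had a median of -2.22 and the 2 of 3 delta cell markers one of -1.73, and 0 of either were called. The median of both PP cell markers was -2.49, and both were called lower by edgeR (lowest adjusted p 0.0255). Summed levels did not overlap for any of these, with 110.2 to 285.4 in WT and 29.0 to 64.7 in Trpm7R/R for alpha, 6.18 to 12.5 and 1.76 to 5.07 for delta, and 141.1 to 242.2 and 24.6 to 50.8 for PP cell markers, and none was at 0 over either group. Summed acinar markers ranged from 9.81 to 13.8 in WT and from 9.25 to 11.2 in Trpm7R/R. Among them Amy2a5, named after its values were seen, had an exon density of 0.38 of its own introns. Ctrb1, named likewise, had 23, 2 and 4 exon reads in WT and 1, 0 and 2 in Trpm7R/R. Acinar junction reads numbered 48 in WT and 15 in Trpm7R/R, where junction reads of all genes were also fewer. Summed neuron and Schwann cell markers ranged from 12.0 to 14.7 in WT and from 8.89 to 12.0 in Trpm7R/R. This list includes Snap25, which the study counts with the exocytosis machinery, so its sum is not specific to nerve. The part of cell composition, and of the separation of 2 libraries by Y-linked reads, in the Abcc8 values was not tested.

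Kcnj11, also on chromosome 7, was too thinly read for a comparison. It had 4, 5 and 1 exon reads in WT and 3, 3 and 3 in Trpm7R/R, beside 0, 2 and 6 intron reads in WT and 2, 0 and 1 in Trpm7R/R. The groups overlapped. Over 3 libraries, its exon density was 1.07 times that of its introns in WT (95% CI 0.379 to 3.11) and 2.56 times in Trpm7R/R (0.638 to 14.7). The latter was the highest pooled ratio of the 7 genes in a genotype, but its interval included 1. No read crossed an exon-exon junction in any library. Kcnj11 did not pass the filter, and with all genes of at least 1 read kept, edgeR gave a log2 fold change of -0.02 (SE 0.90, 95% CI -1.80 to 1.75). A several-fold change of Kcnj11 in either direction was not detectable at this depth.

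Among the pore subunits of the calcium channels, Cacna1c on chromosome 6 encodes Cav1.2, the L-type channel that carries much of the calcium current of the mouse β cell, and Cacna1d on chromosome 14 encodes the L-type channel Cav1.3. Cacna1a on chromosome 8 encodes the P/Q-type channel Cav2.1, which is best known from nerve terminals and is also present in β cells.

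Cacna1c had 29, 41 and 57 exon reads in WT and 46, 27 and 49 in Trpm7R/R, so the genotypes overlapped. Its introns, which span 587787 bases, took 2291, 3134 and 3035 reads in WT and 3799, 2021 and 2544 in Trpm7R/R. Exon density was between 0.326 and 0.518 of intron density in the 6 libraries. Only 1 read crossed an exon-exon junction, in WT replicate 1. The edgeR log2 fold change was -0.03 (95% CI -0.80 to 0.73) on exon reads and -0.05 (95% CI -0.56 to 0.46) on intron reads, with adjusted p of 1 and 1.00. These intervals hold for reads counted under TMM scaling. With exon density below intron density, they do not bound a change of spliced Cacna1c mRNA. Scaling by ribosomal protein genes gave 1.24 on exon reads and scaling by genes well above their introns 1.60. Those scalings moved the median of all genes to 1.34 and 1.82.

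Cacna1d had 36, 47 and 44 exon reads in WT and 57, 32 and 32 in Trpm7R/R. Replicate 4 was above every WT library, and replicates 6 and 8 were below every WT library. Exon density was 0.569, 0.636 and 0.556 of intron density in WT and 0.654, 0.556 and 0.469 in Trpm7R/R. Even so, Cacna1d had reads across exon-exon junctions in 5 of 6 libraries, with 1, 7 and 4 in WT and 2, 0 and 1 in Trpm7R/R. At the WT share of junction reads, 3.58 would have been counted over the Trpm7R/R libraries with predicted genes left out of the total and 10.5 with them included, and 3 were counted. The log2 fold change in the edgeR fit was -0.03 (95% CI -0.76 to 0.71) on exon reads and -0.05 (95% CI -0.44 to 0.34) on intron reads, with adjusted p of 1 and 1.00. Of the 7 genes, only Abcc8 and Cacna1d had more than 1 junction read. Of 19695 autosomal protein-coding genes, predicted genes left out, 11856 had none in any library. At least as many as Abcc8 were found in 617 of these 19695 genes, and at least as many as Cacna1d in 651, each count including the gene itself.

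Cacna1a had 23, 26 and 37 exon reads in WT and 13, 16 and 18 in Trpm7R/R. As for Abcc8, every Trpm7R/R library was below every WT library. Its ratios of exon to own intron density were 0.916, 0.663 and 0.945 in WT and 0.245, 0.718 and 0.712 in Trpm7R/R, which overlapped. The lowest belonged to replicate 4, where Cacna1a had the fewest exon reads and, at 1247, the most intron reads. In edgeR the log2 fold change was -0.82 (SE 0.39, 95% CI -1.67 to 0.02) on exon reads, with an adjusted p of 0.898, and -0.08 (SE 0.32) on intron reads, with an adjusted p of 1.00. Scaling by ribosomal protein genes gave 0.48 and scaling by genes well above their introns 0.87. A single junction read was counted, in Trpm7R/R replicate 6.

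The β subunits differed from each other in read number by an order of magnitude. Cacnb2 on chromosome 2 encodes a β subunit known as a main partner of Cav1.2 in the heart and found in β cells as well. It had the most exon reads of the 7 genes, with 40, 56 and 55 in WT and 61, 38 and 54 in Trpm7R/R. Its intron reads were also the densest, at 1.42 to 1.90 times the median intron density of their library, and 16.6% of them did not map uniquely. Exon density was 0.353 to 0.697 of intron density, and no read crossed an exon-exon junction in any library. The edgeR log2 fold change was 0.05 (95% CI -0.62 to 0.72) on exon reads and 0.02 (95% CI -0.40 to 0.44) on intron reads, with adjusted p of 1 and 1.00.

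Cacnb3 on chromosome 15 encodes the β subunit that is prominent in mouse β cells. It had 2, 6 and 3 exon reads in WT and 4, 1 and 2 in Trpm7R/R, and 5, 16 and 15 intron reads in WT and 23, 18 and 9 in Trpm7R/R. Both sets overlapped between genotypes, and no junction read was found. In the edgeR fit with all genes of at least 1 read, the log2 fold change was -0.53 (95% CI -2.37 to 1.31). On intron reads it was 0.46 (95% CI -0.85 to 1.78), with an adjusted p of 1.00.

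Across the 7 genes, 5 passed the filter on exon reads and 0 were called. A call needed an adjusted p no larger than 0.05 and a difference of 2-fold or more. By the same rule edgeR called 0.0257% of the 11674 genes lower and 0% higher. At an unadjusted p under 0.05, 1 of 5 was lower and 0 were higher, beside 4.57% and 1.14% of all genes. DESeq2 and limma-voom also called 0. Exon reads did not overlap between genotypes for 2 of 5, both lower in Trpm7R/R, beside 6.84% of all genes that were lower and 3.64% that were higher without overlap. The median log2 fold change of the 5 was -0.03, and that of all genes tested 0.01. On intron reads 6 of 7 were tested and 0 were called, beside 0% of 20921 genes in either direction, and 0 had an unadjusted p under 0.05, beside 0.989% lower and 0.884% higher.

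**Figure D3:**
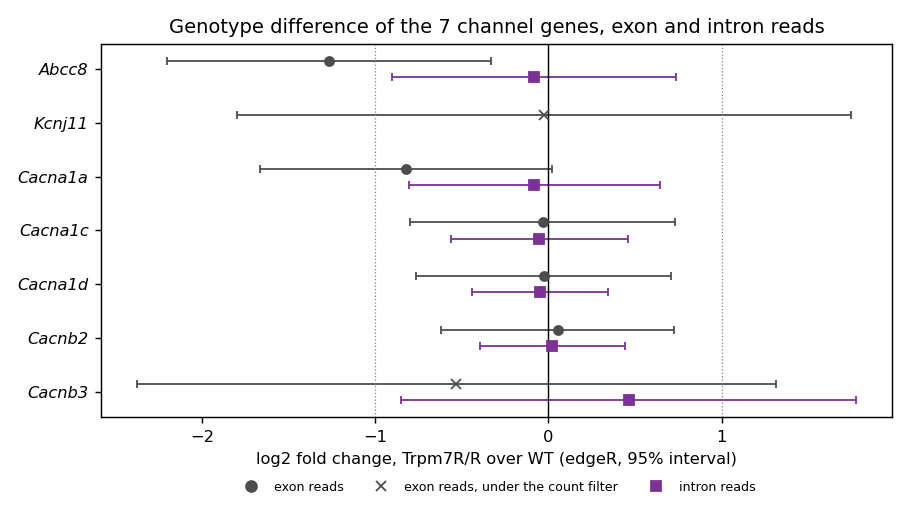
Log2 fold change of Trpm7R/R over WT (horizontal axis) with 95% intervals from edgeR, for exon reads in grey and intron reads in purple. Crosses mark genes under the count filter, taken from the fit with all genes of at least 1 read, and dotted lines mark a 2-fold change. The interval of Abcc8 on exon reads, from -2.20 to -0.33, is the only 1 that excludes 0.

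The change in exon to own intron ratio was tested between genotypes for each gene with a 2-sided exact permutation test over the 6 libraries, on log2 values with 0.5 added to each count. Abcc8 differed by -1.23, from 0.22 ± 0.41 (SD, n = 3) in WT to -1.01 ± 0.40 (SD, n = 3) in Trpm7R/R, and was lower in 3 of 3 libraries without overlap, with an exact p of 0.10. This is the smallest p that 3 against 3 libraries allow, so the design cannot reach 0.05. Cacnb3 differed by -1.10 (exact p 0.20), or -0.61 without Trpm7R/R replicate 6, and Cacna1a by -0.71 (exact p 0.30), or -0.20 without Trpm7R/R replicate 4. Kcnj11, with at most 6 reads in any library and class, differed by 0.77 in the other direction (exact p 0.80), or by -0.65 without WT replicate 3. Cacna1c, Cacna1d and Cacnb2 differed by 0.00, -0.08 and -0.02, less than the SD of either genotype.

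For each of the 6 genes tested on intron reads, the SD within either genotype exceeded the difference between the genotype means. Relative to the median intron density of the library, Abcc8 introns stood at 0.433, 0.708 and 0.794 in WT and at 0.942, 0.529 and 0.345 in Trpm7R/R. Cacna1a showed the same order of libraries, with 0.447, 0.739 and 0.740 in WT and 0.928, 0.471 and 0.408 in Trpm7R/R. Replicate 4 was highest for Abcc8, Cacna1a, Cacna1c, Cacna1d and Cacnb3. Cacnb2 showed the opposite, at 1.88, 1.71 and 1.58 in WT and 1.42, 1.90 and 1.89 in Trpm7R/R, where replicate 4 was lowest.

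**Figure D4:**
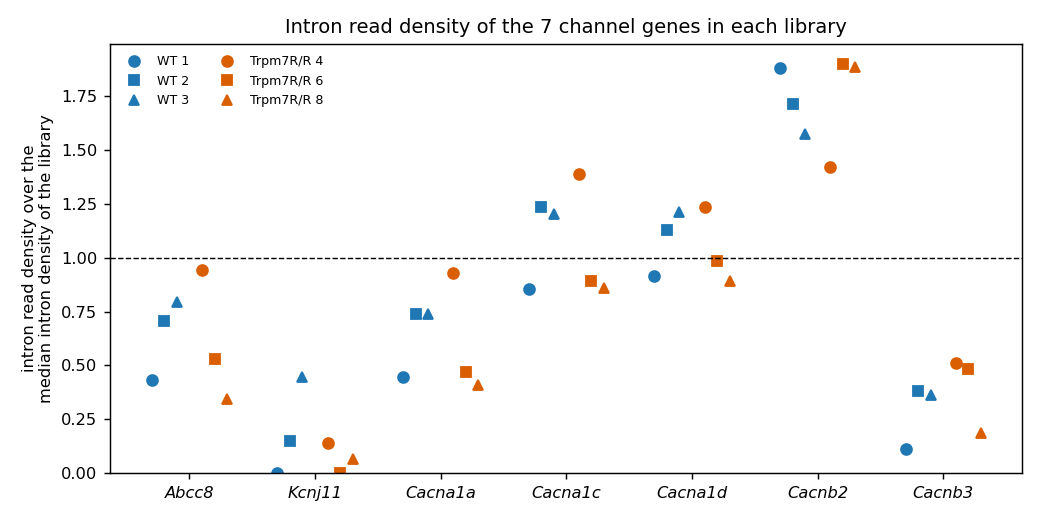
Intron read density of each gene over the median intron density of the same library (vertical axis), with WT libraries in blue and Trpm7R/R libraries in orange. The dashed line marks the library median. Replicate 4 of Trpm7R/R is the highest point for Abcc8, Cacna1a, Cacna1c, Cacna1d and Cacnb3 and the lowest for Cacnb2.

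The spread between libraries went with the base composition of the genes, taken as the GC content of their annotated transcripts. Cacnb2, the member lowest in GC at 45.2%, had an intron density in replicate 4 that was 0.755 of that in replicate 8. Cacna1d at 49.2% had 1.38 times, and Cacna1c at 52.9% had 1.62 times. Abcc8 at 57.0%, Cacna1a at 57.3% and Cacnb3 at 59.4% had 2.73, 2.27 and 2.77 times. The same gradient ran through 4306 protein-coding autosomal genes with long introns, divided into 5 bins of equal size by GC content. The median ratio of replicate 4 over replicate 8 was 0.698 in the bin with the lowest GC content, and 0.847, 1.03, 1.26 and 1.66 in the following bins. Among WT libraries, genes in the bin with the highest GC content had a median of 0.780 of their 6-library mean in replicate 1, and 1.07 and 1.15 in replicates 2 and 3. These values describe the libraries, and the part of base composition in the exon values of Abcc8 and Cacna1a was not tested.

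**Figure D5:**
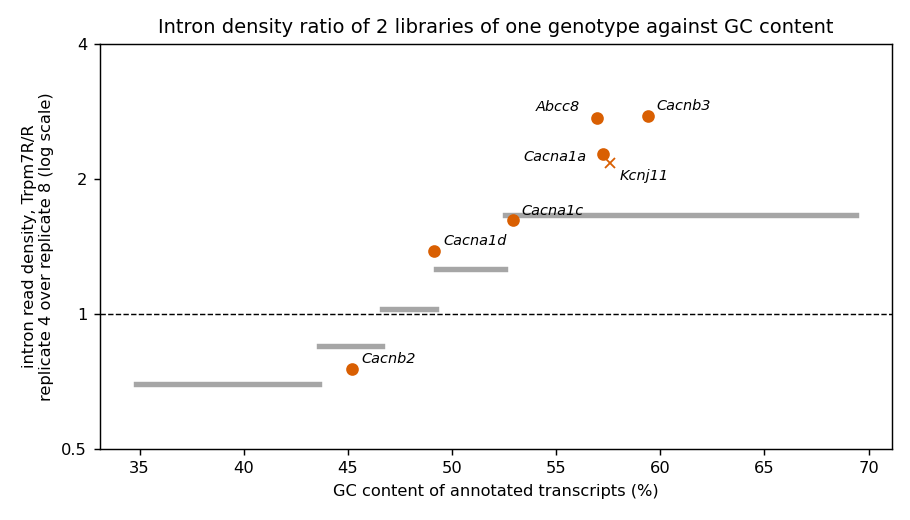
Intron read density in Trpm7R/R replicate 4 over that in replicate 8 (vertical axis, log scale) against the GC content of annotated transcripts. Orange points are the 7 genes, the cross being Kcnj11 with 2 and 1 intron reads, and grey bars are medians of 5 equal bins of 4306 genes. The ratio runs from 0.698 in the lowest bin to 1.66 in the highest.

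Other genes of the same functions were compared as 7 lists with 105 genes, of which 60 passed the filter. Of these, edgeR called 0, and at an unadjusted p under 0.05 it found 1 of 60 lower and 0 higher, beside 4.57% and 1.14% of all genes. None of the 105 was well above its introns, beside 72 of 19695 autosomal protein-coding genes with predicted genes left out, so few genes of any kind were. Well above was defined as an exon density at least 5 times that of its own introns and of the library background, with a mean of at least 1 junction read. The lists' median log2 fold changes ran from -0.14 for other calcium channel pore subunits (5 tested) to 0.21 for calcium-activated and two-pore potassium channels (7 tested), beside 0.01 over all genes.

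Delayed rectifier and other voltage-gated potassium channels had 17 of 29 genes tested, 7 of them with a negative log2 fold change, a median of 0.04 and 0 at an unadjusted p under 0.05. The other calcium channel pore subunits had 5 of 7 genes tested, all with a negative log2 fold change that did not pass the test, and the other auxiliary subunits 6 of 14, of which 2 were negative. Other KATP channel subunits had 1 of 2 genes tested, Abcc9, which encodes the SUR2 of muscle, at -0.05 (SE 0.38).

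In the list of calcium pumps, exchangers and store channels, 14 of 21 genes were tested. Atp2a2, which encodes the SERCA2 pump that returns calcium to the endoplasmic reticulum, had 54, 64 and 45 exon reads in WT and 29, 25 and 36 in Trpm7R/R. Its edgeR log2 fold change was -0.81 (SE 0.32), with an adjusted p of 0.592, so it was not called. Atp2b1, a calcium pump of the plasma membrane named after its values were seen, had the most junction reads of these lists, with 13, 25 and 9 in WT and 3, 2 and 4 in Trpm7R/R. Junction reads of all genes, predicted genes left out, were also fewer in Trpm7R/R, at 23694 against 79487 in WT. Exon reads of Atp2b1 numbered 107, 122 and 90 in WT and 77, 89 and 126 in Trpm7R/R, which overlapped (edgeR log2 fold change -0.08, SE 0.29). No member had as many junction reads as Atp2b1, which had 47 in WT and 9 in Trpm7R/R.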

How the data were processed

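Islet RNA of 6 mice was sequenced on a NovaSeq instrument after low-input library preparation. The authors deposited, per library, raw read counts of each gene (exon, intron and exon-exon reads, total and unique) and RPKM, which are exon reads per kilobase of exon and 1000000 mapped reads. For the aligner and the counter, no name is given in the sources used here. The submitters' processing notes name the build mm10, but gene positions differ from the GRCm38 annotation, so only chromosomes are given. Tables of the authors' own comparison, with fold changes and p-values, were not used.

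The 7 members and all lists were chosen with earlier results of these data known. Total exon reads of 3 WT and 3 Trpm7R/R libraries were tested in R 4.3.3 by edgeR 4.0.16 (quasi-likelihood), with TMM scaling, filterByExpr at a minimum of 10 counts and Benjamini-Hochberg adjustment over 11674 genes (common dispersion 0.103). Intron reads were tested likewise. Calls needed an adjusted p no larger than 0.05 and a 2-fold difference. The study's methods name a Wald test, and that of DESeq2 1.42.0, the likelihood ratio test, limma-voom of limma 3.58.1, other scalings, filters and reads, a term for Y-linked reads and leaving out each library were alternatives. The fit was tested on simulated data. P-values measure the spread between mice, 1 library each.

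The library background was the median intron density of 5402 genes with at least 50000 bases of intron. Exon to intron ratios carry exact binomial 95% intervals for counting error only, as reads were not counted by molecule. A count of 0 was given a floor of 3 reads. GC content came from GENCODE M21 transcripts on GRCm38. The comparison by GC content and the junction total with predicted genes were added after the data were seen. Named genes were the 7 members and, of each list, up to 3 with an unadjusted p of at most 0.05 and 2 with the highest RPKM among those well above their introns. Of the marker lists, only the values beside Abcc8 are given. The rule also named the genes most like the member with the highest ratio, Kcnj11, and these are not given because Kcnj11 had 1 to 5 exon reads per library. Python 3.11.15, pandas 2.3.3, numpy 2.4.6, scipy 1.17.1 and matplotlib 3.10.9 were used. Values of 1 gene of the lists are not reported here.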

Additional observations from a re-analysis of the deposited data

How the results depend on the processing

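No member was called under any alternative other than 2 scalings. Scaling by ribosomal protein genes called 3 members higher, and scaling by genes well above introns 3, when the median of all genes moved to 1.34 and 1.82 and 62.1% and 82.8% of all 11674 genes were called higher. Scaling by ribosomal protein genes gave log2 fold changes of 0.079 for Abcc8, 0.48 for Cacna1a, 1.24 for Cacna1c and 1.30 for Cacna1d, and scaling by genes well above introns 0.55, 0.87, 1.60 and 1.79, all negative in the reported fit. For Cacnb2 these scalings gave 1.38 and 1.81. The remaining alternatives moved values near 0 across it. Cacna1c turned to 0.055 with all genes of at least 1 read, 0.0055 with limma-voom and 0.11 with the term for Y-linked reads. Cacna1d turned to 0.037 with all genes of at least 1 read, 0.071 with unique reads and 0.43 with the term for Y-linked reads. Cacnb3 turned to 0.28 on total gene reads. On junction reads Cacna1a turned to 2.24, which rests on 1 read, and Abcc8 was at -5.12 (unadjusted edgeR p 0.00234, adjusted 0.563), which is no bound because its Trpm7R/R reads are 0. On total gene reads, introns included, Abcc8 was at -0.18 (adjusted p 1.00) and Cacna1a at -0.09. Without each library in turn, exon values ranged from -1.69 to -1.05 for Abcc8 (lowest edgeR adjusted p 0.0749), -0.92 to -0.56 for Cacna1a, -0.19 to 0.27 for Cacna1c, -0.32 to 0.21 for Cacna1d and -0.062 to 0.16 for Cacnb2. Intron values ranged from -0.53 to 0.20 for Abcc8, -0.51 to 0.13 for Cacna1a, -0.29 to 0.064 for Cacna1c, -0.17 to 0.038 for Cacna1d, -0.056 to 0.16 for Cacnb2 and 0.12 (without WT replicate 1) to 0.81 (without Trpm7R/R replicate 8) for Cacnb3. The causes were not tested. The study-wide count of calls varied more, with 3 lower and 0 higher in the reported fit, 7251 and 9660 higher under the scalings by ribosomal protein genes and by genes well above introns, 161 and 1 by the likelihood ratio test and 151 and 45 without Trpm7R/R replicate 4. With unique reads, Abcc8 in WT replicate 1 was 1.78 times its intron density (95% CI 1.08 to 2.80), the single value above introns. Depth limits Kcnj11 and Cacnb3 most. No paired analysis was possible because the genotypes share no replicate number.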
